A study of Mus musculus with 7 samples.

Results

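The cadherin and non-clustered protocadherin genes of the mouse were placed against the lamin-associated domains (LADs) of embryonic fibroblasts. LADs are long stretches of chromatin that lie at the nuclear lamina, the protein meshwork under the nuclear envelope. The genes were chosen by symbol: every protein-coding gene of the RefSeq table whose symbol is Cdh or Pcdh followed by a digit. This gave 35 genes of the 21887 protein-coding genes on the chromosomes of the list, 23 of them cadherins and 12 non-clustered protocadherins, called members below. The clustered Pcdha, Pcdhb and Pcdhg genes were not among them.

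The labels name the cells iMEF, and the study used independently derived fibroblast lines of a common mouse colony. CUT&RUN, in which a tethered nuclease cuts out antibody-bound chromatin, gave 7 libraries from reactions of 500000 cells: Lamin B1 and IgG with 2 each, H3K9me2 with 2 (antibodies ab1220 and 39041) and H3K14ac with 1. No treatment or genotype is given, except that the list is named wild type. The data used here are the merged list of 1437 LADs, read as the pooled result of both Lamin B1 libraries, so no value has a replicate error and the read depth is unknown. Values of single libraries, of the histone marks and of transcription were not analysed here, so neither the fibroblast label nor the activity of any gene could be checked.

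Cadherins are membrane proteins that join cells by calcium-dependent binding of their extracellular repeats, mostly to the same cadherin on the next cell. The classical cadherins (types I and II) bind catenins on the cytoplasmic side, which link them to actin. Non-clustered protocadherins act mainly in the nervous system, where they take part in cell sorting, axon growth and synapse formation. Fibroblasts are known chiefly for Cdh2 (N-cadherin) and Cdh11 (OB-cadherin). LADs are known as mostly silent chromatin, in which genes of other lineages are often found.

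A larger share of these genes than of all protein-coding genes lay in LADs. Most lay wholly in or wholly out, though less often than genes in general. A border crossed 11.4% of members and 3.36% of all protein-coding genes. With a gene counted as in a LAD when its midpoint fell there, 19 of the 35 members (54.3%) were in LADs and 16 were not. Over all protein-coding genes the share was 23.8%, and without the olfactory and vomeronasal receptor genes it was 19.1%. Of the cadherins 11 of 23 (47.8%) and of the non-clustered protocadherins 8 of 12 (66.7%) were in LADs. The order of these shares depends on the call, since 10 of 23 cadherins and 5 of 12 protocadherins were wholly covered, and 8 of 13 and 5 of 9 with a listed start had it in a LAD. These shares are descriptions, since a merged list has no replicates against which to test them.

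The covered share of the gene body mostly gave the same division, with Pcdh9 (17.3% covered) as the member in a LAD by midpoint that was mainly uncovered. In 15 members the whole body was covered, in 16 no base was, and 4 were crossed by a LAD border. Among all protein-coding genes 21.8% were wholly covered and 74.9% had no overlap. Any overlap was found for 19 members and for 25.1% of all. The median covered share was 65.6% over the members and 0% over all protein-coding genes. With so few genes between the extremes, this median is the value of Pcdh7 alone. It went from 5.97% with borders moved inward by 25 kb to 90.7% with LADs joined across 250 kb.

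**Figure D1:**
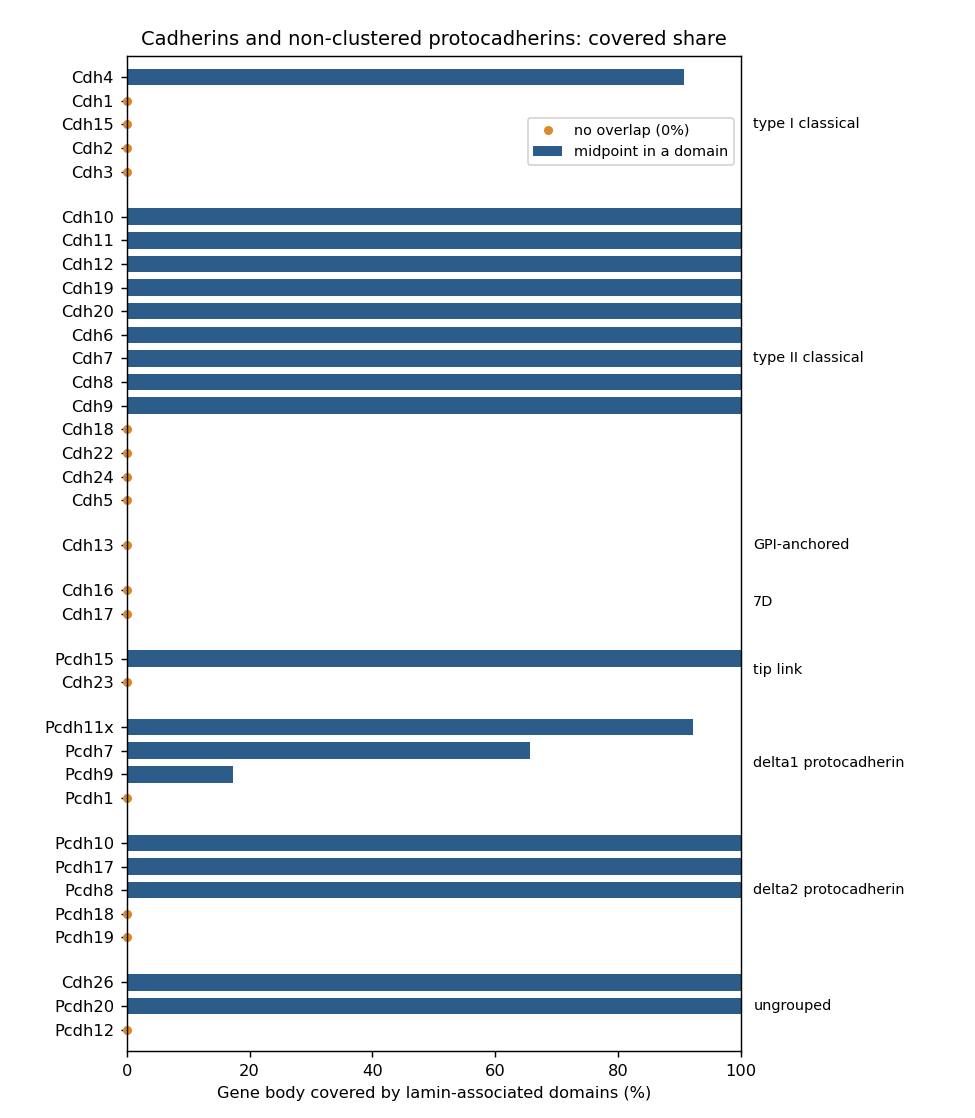
Percent of each gene body (x axis) covered by LADs for the 35 members, grouped by kind of cadherin. Blue bars are genes with midpoint in a LAD and orange dots at 0 are genes without overlap; 9 of the 13 type II cadherins reach 100%, and 4 of the 5 type I cadherins are at 0, as are 74.9% of all protein-coding genes.

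Among the type I classical cadherins 1 of 5 (20%) was in a LAD, near the 23.8% of all protein-coding genes. Cdh1 (E-cadherin, of epithelia), Cdh2, Cdh3 (P-cadherin) and Cdh15 (M-cadherin, of skeletal muscle) had no covered base. Their midpoints were 1111, 155.1, 1214 and 5687 kb from the nearest LAD border. The exception was Cdh4 (R-cadherin, of retina and brain), a gene of 457.0 kb with 90.7% of its body in a LAD. Of the 4 type I cadherins outside LADs, Cdh2 was the nearest to a LAD, and Cdh15 was the farthest of all members.

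Of the 13 type II classical cadherins 9 (69.2%) were in LADs, and each of the 9 was covered over its whole length. Of all protein-coding genes 23.8% were in LADs and 21.8% wholly covered, and of those of at least 100 kb 33.8% were in LADs, while the type II genes had a median length of 153.4 kb. The 9 in LADs were Cdh6, Cdh7, Cdh8, Cdh9, Cdh10, Cdh11, Cdh12, Cdh19 and Cdh20. Their placements are not independent, since Cdh6, Cdh9, Cdh10 and Cdh12 shared a LAD, as did Cdh8 and Cdh11, and Cdh7 and Cdh19. Cdh8, Cdh9 and Cdh10 are known from neural circuits, Cdh6 from kidney and brain, and Cdh11 from mesenchyme and bone. The other 4, Cdh5 (VE-cadherin, of endothelium), Cdh18, Cdh22 and Cdh24, had no overlap with a LAD, and their midpoints were 185.2, 920.4, 2296 and 1138 kb from the nearest border. No gene of this group was crossed by a border.

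The cadherins that belong to neither type I nor type II were mostly outside, as were most genes, since 74.9% of all protein-coding genes had no overlap. Cdh13 (T-cadherin, held by a lipid anchor and without a cytoplasmic part) measured 1185 kb, the second longest member, and had no covered base. Cdh16 and Cdh17, known from kidney and from liver and intestine, carry more extracellular repeats than the classical cadherins. They too had no overlap, with the midpoints 74.7 and 440.4 kb from a border. Cdh26 was wholly covered, 1398 kb inside its LAD. Cdh23 and Pcdh15, whose proteins bind each other in the tip link of inner ear hair cells, were placed differently. Cdh23 had its midpoint 2804 kb from the nearest border, while Pcdh15, at 1554 kb the longest member, was wholly covered.

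Of the 12 non-clustered protocadherins 8 had their midpoint in a LAD and 5 were wholly covered. Of all protein-coding genes 23.8% were in LADs and 21.8% were wholly covered. Of the delta1 group, Pcdh7, Pcdh9 and Pcdh11x had their midpoint in a LAD and Pcdh1 did not. Each of these 3 was crossed by a border, with 65.6%, 17.3% and 92.1% of the body covered. They are long genes, of 417.1, 879.1 and 620.4 kb. Borders crossed 3.36% of all protein-coding genes and 16.5% of those of at least 100 kb. Of the delta2 group, Pcdh8, Pcdh10 and Pcdh17 were wholly covered, and Pcdh18 and Pcdh19 were not covered at all. Pcdh19, the gene of a female-limited epilepsy in humans, lay 354.5 kb from a border. Of the remaining genes, Pcdh20 was wholly covered and Pcdh12, known from endothelium, had no overlap.

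Distances from borders were measured next. The 19 members in LADs had a median midpoint-to-border distance of 965.3 kb, against 307.7 kb for all protein-coding genes in LADs. The deepest were Cdh19 (known from the Schwann cell lineage) at 4076 kb, Cdh9 at 3849 kb and Cdh8 at 3236 kb. The 16 members outside had a median distance of 796.1 kb, nearly the 796.3 kb of all protein-coding genes outside LADs. The farthest were Cdh15, Cdh23 and Cdh22. Only Pcdh8 and Pcdh9 had a midpoint within 50 kb of a border, at 5.47 and 7.24 kb, both on the inner side. Domain lengths were multiples of 2.5 kb, so borders are no finer than that.

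**Figure D2:**
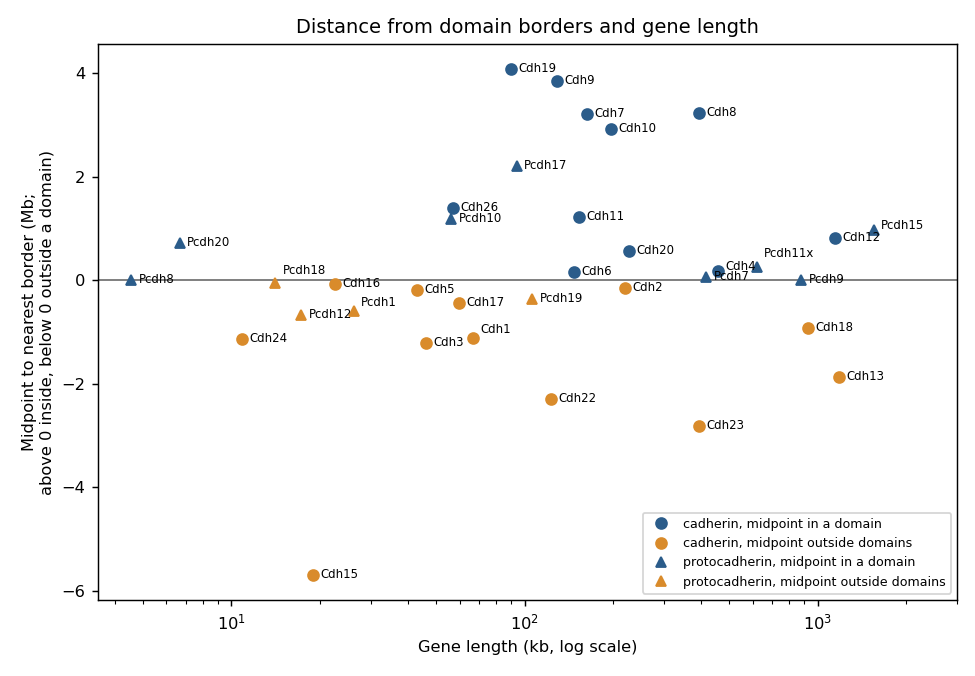
Distance of each midpoint from the nearest LAD border in Mb (y axis, positive inside and negative outside) against gene length in kb (x axis, log scale). Circles are cadherins and triangles protocadherins; Cdh19 sits highest at 4076 kb inside and Cdh15 lowest at 5687 kb outside.

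The LADs that held members were few and long. Only 12 of the 1437 LADs held a member midpoint, and 5 of these held 2 or more members. LADs of at least 5 Mb, of which the list has 26, held 14 of the 19 members in LADs (73.7%). Of all protein-coding genes in LADs, 9.45% were in LADs of that length, or 5.77% without the receptor genes. The members in LADs had a median LAD length of 6.93 Mb, against 1.78 Mb for all protein-coding genes in LADs. Members that share a LAD are not independent of each other, and 12 of the 19 did so.

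On chromosome 8, the members lay on both sides of a LAD border. Cdh8 (99024471 to 99417666) and Cdh11 (102632095 to 102785493) were the only protein-coding genes of a LAD of 7.95 Mb (95985404 to 103937878). Their bodies, 3214 kb apart, took up 6.87% of it. Cdh11, which fibroblasts are known to express, was wholly covered and had its midpoint 1229 kb from the nearest border. Cdh5 (104101613 to 104144504) began 163.7 kb beyond the upper border, with no midpoint of a protein-coding gene between it and Cdh11.

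The other members of chromosome 8 lay in gaps with more genes. Cdh5 and Cdh16 shared a LAD-free gap of 0.750 Mb with a total of 17 protein-coding genes. Cdh3 and Cdh1, 46.4 kb apart, lay in a gap of 2.73 Mb with 78 genes. Cdh13 (118140017 to 119324929) and Cdh15 (122848374 to 122867397) shared a gap of 11.7 Mb with 137 genes. Within 1 Mb of the midpoint, Cdh13 had 14 other protein-coding genes and Cdh5 had 25, fewer than the median of 30 for genes outside LADs, and Cdh1, Cdh3, Cdh15 and Cdh16 had 46 to 52. Of the 8 members on this chromosome 2 were thus in a LAD, a share near the 23.8% of all protein-coding genes, and the density of genes was 0.251 per Mb in that LAD and 11.7 to 28.6 per Mb in the gaps.

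On chromosome 15, 4 of 5 members were in LADs, against 23.8% of all protein-coding genes. All 4 shared the same LAD, of 8.90 Mb (12943641 to 21841112). In order, these were Cdh6 (13028699 to 13176407), Cdh9 (16728550 to 16857138), Cdh10 (18818869 to 19016206) and Cdh12 (20448878 to 21598421). The only other protein-coding gene there was Acot10, and the 4 cadherin bodies made up 18.2% of the domain. Cdh18 (22548898 to 23477491) is the next gene after Cdh12, 950.5 kb away with no protein-coding midpoint between them, and lay outside. Its body of 928.6 kb began 707.8 kb above that LAD and ended 456.1 kb before the next, a short LAD of 0.05 Mb. The gap around Cdh18, which ends at that short LAD, measured 2.09 Mb and held 2 protein-coding genes. This was 0.956 per Mb, against 0.562 per Mb in the LAD of its neighbours.

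On chromosome 14, the midpoints of the protocadherins fell in 3 LADs. Pcdh8 (79766772 to 79771312) and Pcdh17 (84443563 to 84537565) shared a LAD of 6.93 Mb (79763569 to 86696046) with Olfm4 as its only other protein-coding gene. Pcdh8 stood at its very edge, 5.47 kb from the lower border, and Pcdh17 was 2205 kb inside. Pcdh20 (88464743 to 88471396) was the only protein-coding gene of a LAD of 1.62 Mb (87561045 to 89186039). Cdh24, the cadherin of this chromosome, lay outside in a gap of 4.64 Mb with 113 genes.

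Pcdh9 (93013700 to 93892834), also on chromosome 14, was covered in small part only. Its body of 879.1 kb contained 2 short LADs, of 60.0 kb (93446026 to 93506025) and 92.5 kb (93593526 to 93686024), which covered 6.82% and 10.5% of it. The midpoint happened to fall in the shorter of these. A LAD of 45.0 kb ended 5.17 kb below the gene and a LAD of 1.98 Mb began 30.7 kb above it. The gene thus lay mostly between LADs, and its call depends on the point used. Its annotated start (93890679, minus strand) was outside, 32.8 kb from a border.

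On chromosome 1, 3 type II cadherins lay in 2 LADs. Cdh7 (109982237 to 110145272) and Cdh19 (110888002 to 110977601) were in the longest LAD of the list, of 11.4 Mb, and took up 2.22% of it. The other protein-coding genes there numbered 15, among them several Serpinb genes. Cdh20 (104768340 to 104995481) was in a LAD of 7.22 Mb (98229691 to 105452167), 570.3 kb from its upper border.

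On chromosome 2, Cdh26 (178430515 to 178487366) and Cdh4 (179442423 to 179899377) shared a LAD of 5.38 Mb (174471859 to 179856841) with 39 other protein-coding genes. This was the most gene-dense LAD of more than 100 kb that held a member, with 7.61 genes per Mb. Its upper border ran through Cdh4, of which 42.5 kb at the high-coordinate end were outside. Cdh22 lay on the same chromosome in a gap of 6.11 Mb with 117 genes.

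**Figure D3:**
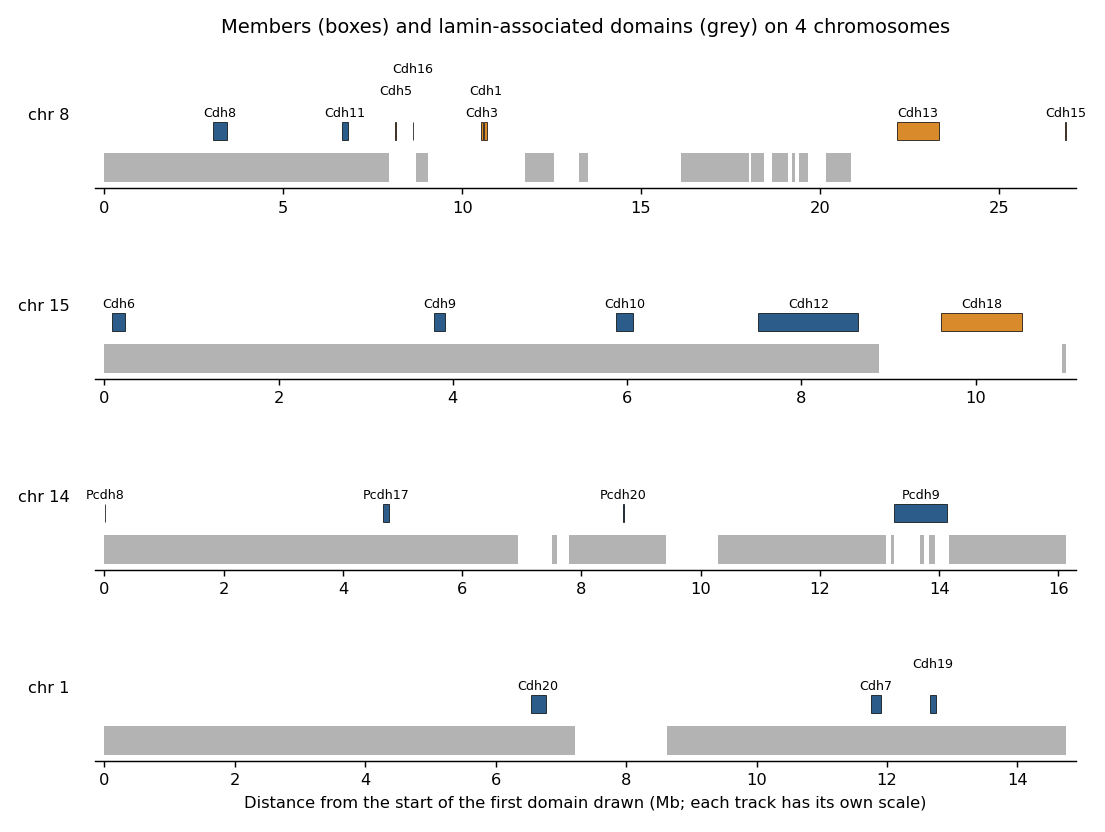
LADs (grey) and members (boxes, blue with midpoint in a LAD and orange outside) along chromosomes 8, 15, 14 and 1, as distance in Mb from the start of the first LAD drawn. The last LAD of the lowest tracks runs on beyond the edge; Cdh8 and Cdh11 share a LAD of 7.95 Mb, and Cdh18 lies beyond the LAD that holds Cdh6, Cdh9, Cdh10 and Cdh12.

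Some members outside LADs lay close between them. Cdh2 (chromosome 18, 16588877 to 16809246), the other cadherin known from fibroblasts, was the only protein-coding gene of a gap of 0.385 Mb. LADs of 1.34 and 3.06 Mb lay on its sides, 44.9 and 119.7 kb from the gene body. Pcdh18 (chromosome 3, 49743291 to 49757383) was likewise alone in a gap of 0.437 Mb, with LADs of 2.64 and 0.865 Mb at 52.3 and 371.1 kb. Among all protein-coding genes in gaps, 1.73% were alone in their gap, against 2 of 16 members (12.5%). Within 1 Mb to each side of the midpoint, LADs covered 80.8% of the sequence around Cdh2 and 78.1% around Pcdh18, while the median over all members outside was 9.45%.

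Others were alone inside. Pcdh15 (chromosome 10, 73096277 to 74649831), Pcdh20, Pcdh9 and Pcdh11x (chromosome X, 120290238 to 120910622) were each the only protein-coding gene of their LAD, or 4 of 19 members (21.1%) against 6.74% of all protein-coding genes in LADs. The LAD of Pcdh9 is the 60.0 kb stretch within its own body, and without LADs under 100 kb the count was 3 of 18. The 6.74% covers LADs of all lengths and includes the receptor genes. No share of all genes was computed for LADs of at least 100 kb. The body of Pcdh15 filled 72.4% of its LAD of 2.14 Mb, and the part of Pcdh11x inside filled 52.9% of a LAD of 1.08 Mb. Pcdh10 (chromosome 3, 45378398 to 45434579) shared 4.80 Mb with Pabpc4l only. Pcdh10, Pcdh15, Pcdh20 and Pcdh11x lay 1177, 965.3, 718.0 and 261.5 kb from the nearest border.

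The neighbourhood of the members was poor in genes where they lay in LADs. A median of 1 other protein-coding midpoint lay within 1 Mb to each side of members in LADs, against 22 for all protein-coding genes in LADs, 15 without the receptor genes and 8 for those of at least 100 kb. For members outside the median was 35.5, against 30 for all outside. There was no other midpoint within that distance of 10 of the 35 members (28.6%), namely Cdh2, Cdh8, Cdh9, Cdh10, Cdh11, Pcdh7, Pcdh9, Pcdh10, Pcdh15 and Pcdh17. This was so for 0.356% of all protein-coding genes and for 2.1% of those of at least 100 kb. LADs covered a median of 98.3% of this window around members in LADs and 78.1% around all protein-coding genes in LADs.

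The members are longer than most genes, although their lengths vary widely. The lengths ran from 4.54 kb (Pcdh8) to 1554 kb (Pcdh15), with a median of 123.4 kb against 17.2 kb for all protein-coding genes. Members in LADs had a median length of 163.0 kb and those outside 52.9 kb. Over all protein-coding genes the order was the opposite, with 10.2 kb in LADs and 18.6 kb outside, but without the receptor genes it was that of the members, with 20.7 and 18.9 kb. Of the 19 members of at least 100 kb, 13 (68.4%) were in LADs, against 33.8% of all protein-coding genes of that length. In the class of 100 to 300 kb the counts were 6 of 9 members (66.7%) and 25.2% of all genes.

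From 300 kb upward, where genes in general lay in LADs more often, the shares of members and of all genes were 7 of 10 (70%) and 62.5%. Cdh13, Cdh18 and Cdh23 were the members of that length outside LADs. In the class of 20 to 100 kb 4 of 10 members (40%) were in LADs, against 16.4% of all genes. Below 20 kb it was 2 of 6 (33.3%), the small genes Pcdh8 and Pcdh20, against 26.5%. The share of members was thus above that of all genes from 20 to 100 kb and from 100 to 300 kb. In the shortest and the longest class it was near that of all genes, and there were few members in any class. How much of the difference over all lengths goes with length was not tested.

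**Figure D4:**
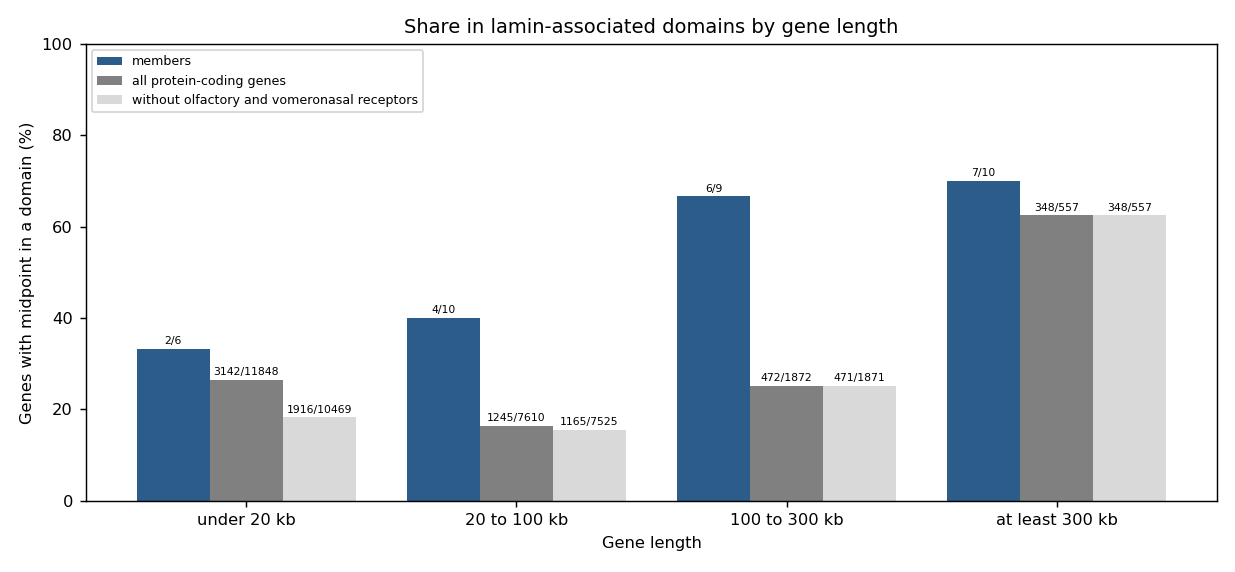
Percent of genes with midpoint in a LAD (y axis, from 0) by class of gene length, for members (blue), all protein-coding genes (dark grey) and those without receptor genes (light grey), with counts above the bars. Members stand most clearly above all genes from 100 to 300 kb, with 66.7% against 25.2%. They are near all genes from 300 kb upward (70% against 62.5%) and below 20 kb (33.3% against 26.5%).

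Borders crossed 4 of the 35 members, Cdh4, Pcdh7, Pcdh9 and Pcdh11x, against 3.36% of all protein-coding genes. These 4 were all longer than 100 kb, a length at which 16.5% of all protein-coding genes were crossed and 4 of 19 members (21.1%). In Pcdh7 (chromosome 5, 57716145 to 58133236) the first 143.5 kb were free and the remaining 65.6% belonged to a LAD of 5.86 Mb (57859629 to 63717110). Its annotated start (57718081, plus strand) lay 53.5 kb from the nearest border, since another LAD, of 3.37 Mb, ended 51.5 kb below the gene. In Pcdh11x the free part was 48.7 kb at the low-coordinate end.

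Start sites were listed for 22 of the 35 members, and 13 of these (59.1%) had their start in a LAD, against 23.9% of all protein-coding genes with a listed start. The start and the midpoint were placed alike in 20 of the 22. The exceptions, Pcdh7 and Pcdh9, had a free start and a midpoint in a LAD. Of all protein-coding genes with midpoint in a LAD, a border in the body and a listed start, 52.1% had the start outside. With or without a border in the body, it was 4.25% of those with midpoint in a LAD and a listed start. No start was listed for Cdh1, Cdh2, Cdh3, Cdh4, Cdh5, Cdh11, Cdh13, Cdh16, Cdh17, Cdh19, Pcdh1, Pcdh11x and Pcdh12.

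The 250 bases before the listed start were examined for CpG, the dinucleotide CG, which reads the same on both strands. It is rare in most of the genome but kept in CpG islands, where many promoters lie. The ratio of observed to expected CpG divides the number of CG by that expected from the C and G of the same bases. Members with the start in a LAD had a median ratio of 0.513, while all protein-coding genes with the start in a LAD had 0.185. With the start outside, the medians were 0.573 for members and 0.645 for all. In 11 of the 22 members these bases lay wholly within the annotated span of the gene, since the listed start is not at the outer end of that span. The listed starts of Pcdh15, Cdh12 and Cdh18 were 725.6, 662.6 and 487.6 kb inside the gene, so their start calls and ratios describe inner starts. At least 1 CG was found before 92.6% of all listed starts.

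Of the 13 members with the start in a LAD, 6 (46.2%) had a ratio of 0.6 or more, against 14.3% of all protein-coding genes with the start in a LAD and 19.4% without the receptor genes. They were Pcdh10 (0.882), Cdh8 (0.825), Pcdh17 (0.800), Cdh20 (0.709), Pcdh8 (0.673) and Cdh7 (0.614). Of the 9 members with the start outside, 4 (44.4%) reached it, against 55.0% of all genes outside. They were Pcdh18 (0.815), Cdh22 (0.799), Pcdh9 (0.713) and Cdh24 (0.665). The values of the members outside lay within the range of those inside. Among the members of the chromosome 15 LAD, Cdh6, Cdh9, Cdh10 and Cdh12, none reached 0.6, and their values ran from 0.260 to 0.513.

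**Figure D5:**
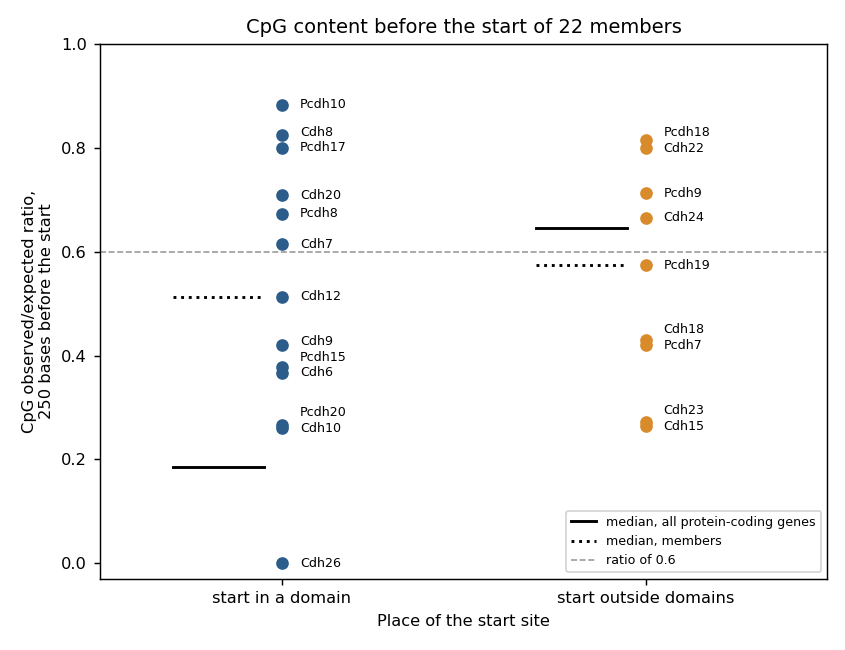
CpG observed/expected ratio of the 250 bases before the start (y axis) for the 22 members with a listed start, by place of the start. Short lines mark medians (solid, all protein-coding genes; dotted, members); in LADs the median of the members, 0.513, lies above that of all genes, 0.185.

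Sequences before 4 starts are shown to let the extremes of this ratio be seen, from RefSeq on GRCm38.p6, with every CG in capitals and only bases outside the gene's own annotated span. They belong to the members with the highest and the lowest ratio in LADs, Pcdh10 (chr3:45378148-45378397, plus strand) and Cdh26 (chr2:178430265-178430514, plus strand), and outside, Pcdh18 (chr3:49757384-49757566, minus strand) and Cdh15 (chr8:122848124-122848373, plus strand).
Pcdh10: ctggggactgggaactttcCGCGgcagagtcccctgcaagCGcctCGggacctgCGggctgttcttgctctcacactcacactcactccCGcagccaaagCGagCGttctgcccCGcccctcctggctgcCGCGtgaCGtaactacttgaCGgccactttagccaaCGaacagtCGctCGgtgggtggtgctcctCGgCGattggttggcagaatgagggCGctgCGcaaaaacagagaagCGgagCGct
Cdh26: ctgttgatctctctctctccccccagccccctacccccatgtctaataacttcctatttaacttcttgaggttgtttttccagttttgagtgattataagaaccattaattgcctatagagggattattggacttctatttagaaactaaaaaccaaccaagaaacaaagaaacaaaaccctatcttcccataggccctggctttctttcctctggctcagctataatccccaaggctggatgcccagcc
Pcdh18: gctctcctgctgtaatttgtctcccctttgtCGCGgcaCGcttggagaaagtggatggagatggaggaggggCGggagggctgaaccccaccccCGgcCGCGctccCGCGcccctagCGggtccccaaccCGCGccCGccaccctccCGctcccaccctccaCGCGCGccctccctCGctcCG
Cdh15: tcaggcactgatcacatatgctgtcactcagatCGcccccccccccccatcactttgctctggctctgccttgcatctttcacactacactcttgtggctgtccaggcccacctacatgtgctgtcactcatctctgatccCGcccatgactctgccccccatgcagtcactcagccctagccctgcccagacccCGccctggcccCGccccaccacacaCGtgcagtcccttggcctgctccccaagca

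Pcdh10, wholly inside a LAD of 4.80 Mb, had 22 CG in these 250 bases and 63.2% G and C. Cdh26, also wholly inside, had none and 42.8%. The 183 bases shown for Pcdh18, which lay in a gap of 0.437 Mb, held 19 CG, and the 250 bases of Cdh15, the member farthest from any LAD, held 5. Over all members with a listed start, the median was 7 CG and 50.4% G and C for starts in LADs, and 16 CG and 63.6% for starts outside. For all protein-coding genes it was 2 CG and 44.0% in LADs, and 13 CG and 58.0% outside.

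Other genes of the cadherin superfamily and the catenins were placed for comparison. Of 27 superfamily genes outside the symbol rule (the Celsr, Fat, Dchs, Cdhr, Clstn, desmocollin and desmoglein genes and Ret), 11 (40.7%) had the midpoint in a LAD, against 23.8% of all protein-coding genes. Of these, 8 were desmosomal genes of a cluster on chromosome 18. Dsc1, Dsg1a, Dsg1b, Dsg1c, Dsg2, Dsg3 and Dsg4, whose proteins hold epidermal and other epithelial cells together, shared a LAD of 20081454 to 20593951, and Dsc3 lay in the LAD before it. Dsc2 was outside, 36.4 kb from a border. The other 3 were Fat3, Fat4 and Clstn2. All 5 Cdhr genes and all 3 Celsr genes, the latter known for planar cell polarity, were outside. Seen from their starts the count was 3 of 15 (20%), below the 23.9% of all genes with a listed start. By contrast, 15 of the 27 had no covered base, a smaller share than the 74.9% of all protein-coding genes. With borders moved inward by 25 kb, 7 of the 27 had the midpoint in a LAD, against 22.1% of all protein-coding genes.

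Of 14 catenin and partner genes 3 (21.4%) were in LADs, near the 23.8% of all protein-coding genes. They were Ctnna2, the neural alpha-catenin, with 100% of 1098 kb covered, Ctnna3, known from heart and testis, with 77.2% of 1574 kb, and Ctnnd2, the neural delta-catenin, with 51.5% of 856.8 kb. The other 11, Arvcf, Ctnna1, Ctnnal1, Ctnnb1 (beta-catenin), Ctnnd1 (p120), Jup, Pkp1, Pkp2, Pkp3, Pkp4 and Vcl, had no covered base. Of all protein-coding genes 74.9% had none. The 3 in LADs were the longest of the list.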

How the data were processed

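The authors deposited 1 merged list of LADs in BED format, with start and end in base pairs. The score column of the deposited list is 0 in every line. Bowtie2 and mm10 are named in the submitters' processing notes, and the domain caller, its threshold, the use of IgG or spike-in and the way of merging are not given in the sources used here. That the list is pooled over both Lamin B1 libraries was taken from its name. Depth is unknown. Its smallest gap is 52499 bp, and all lengths (100%) lie within 125 bp of a multiple of 2.5 kb, which limits how finely borders are known.

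Gene positions came from the RefSeq table of GRCm38.p6, the build of mm10, and starts and sequences from its promoter table, using the outermost start listed. Midpoint, start, covered percent and border distances were computed with Python 3.11.15, pandas 2.3.3 and numpy 2.4.6. The placement was tested on simulated data. The members and lists were chosen with earlier results of these data known, so no p-value was computed. All members were named, with full values for those sharing a LAD, crossed by a border, within 50 kb of one, or among the 3 deepest or farthest, and for Cdh2 and Cdh11. Sequences were printed for the extremes among members with at least 150 of the 250 bases outside the gene.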

Additional observations from a re-analysis of the deposited data

How the results depend on the processing

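Over all 35 members, the count of 19 in LADs ranged from 15, with the whole gene body required, to 19, with any overlap or with LADs joined across 100 or 250 kb. By start site it was 13 of the 22 with a listed start, and among members of at least 100 kb 13 of 19. No member was gained under any alternative, and those lost were among Cdh4, Pcdh7, Pcdh8, Pcdh9 and Pcdh11x. Pcdh9 was lost with LADs of at least 100 or 500 kb, and Pcdh8 and Pcdh9 with borders moved inward by 25 kb, which gave 17. Over all protein-coding genes the share by midpoint was 23.3% and 20.7% with these minimum lengths, 24.5% and 27.3% with joining at 100 and 250 kb, and 22.1% and 25.8% with borders moved inward and outward. The 11 cadherins in LADs became 10 with the whole body required and stayed 11 under the other alternatives over all 23. Of the protocadherins, 5 of 12 were wholly covered and 5 of the 9 with a listed start had it in a LAD, against 8 by midpoint. Starts are listed for fewer genes, which lowers such counts by construction. Superfamily genes in LADs went from 11 to 3 by start and 7 with borders moved inward, and catenins from 3 to 1 with the whole body required. The median covered share of members went from 65.6% to 90.7% with joining at 250 kb, 71.6% with borders moved outward and 5.97% with borders moved inward, by 25 kb each, as it follows a single gene between the extremes.

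No paired analysis was possible because the list holds no values per library, and the alternative that leaves out each library in turn was not run, for want of such values. Depth limits how many short LADs and short gaps, such as those in Pcdh9, are known.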
